A study of Mus musculus with 4 samples.

Results

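Thioredoxin 1 transcripts stood higher in lymph nodes of mice given the naphthoquinone BrQ than in those given vehicle. Paraoxonase 2 transcripts were also called higher, but by less, and that call was lost under 7 of 14 other settings. No change was detected in Ptgr1 or Pon3. These 4 genes (Txn1, Ptgr1, Pon2 and Pon3) were picked by symbol out of 56748 gene IDs, as genes for proteins that deal with electrophiles, quinones, reactive carbonyls and lactones. Their fold changes were not part of the rule, but it drew on parts of the genome where counts and names appeared to meet, and earlier results of these data were known. The BrQ group was 2 EAE mice given BrQ (EAE, experimental autoimmune encephalomyelitis, is a disease model in which immune cells are primed to attack myelin). The series title names this compound in full as 2-bromo-1,4-naphthalenedione. The Vehicle group was 2 EAE mice that had received the carrier. Each mouse gave 1 lymph node RNA library, numbered 1 or 3 in the titles. All 4 mice carried EAE, so no healthy baseline was part of the comparison, and the labels give no strain, age, dose or time of treatment.

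Reads in gene intervals numbered 6992223 and 6813832 in BrQ replicates 1 and 3, against 7315568 and 7989226 in Vehicle replicates 1 and 3. Reads in no annotated feature were 88.6% and 88.8% of the read rows in BrQ, against 87.8% and 86.8% in Vehicle. For most of the genome a symbol in these tables cannot be trusted to hold its own gene's reads. The 4 genes lie in stretches of mouse chromosomes 4 and 6 (build GRCm38, also called mm10) where names and reads were taken to meet. There are 5 such stretches, with 445 features tested. They were drawn after counts had been seen, and the chromosome 6 stretch, which holds Pon2 and Pon3, was found under only some of the settings tried. Counts of the genes beside the members are given further on. In whole tissue, more cells of a type and more RNA per cell cannot be told apart.

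Thioredoxin 1, the product of Txn1, is a small cytosolic protein that reduces disulfides in other proteins and is itself kept reduced by thioredoxin reductase at the cost of NADPH. Ptgr1 encodes prostaglandin reductase 1, an NADPH-dependent enzyme that saturates the double bond of reactive alkenals and ketones and also inactivates leukotriene B4. The paraoxonases hydrolyse lactones: in humans PON1 is secreted by the liver and circulates on high-density lipoprotein, PON2 stays inside cells of many tissues, and PON3 is made mainly in liver. Naphthoquinones can react with thiols and cycle between oxidised and reduced forms. Cells answer such compounds in part through the transcription factor NRF2, which acts at antioxidant response elements (AREs).

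The promoters of the 4 genes are shown so that their motifs and CpG content can be set beside the responses. Each is 300 bases of RefSeq sequence on GRCm38.p6, from 250 bases before the transcription start to 50 after it, written 5′ to 3′ on the gene's own strand, which is the minus strand for all 4. The positions are chr4:57956362-57956661 for Txn1, chr4:58987029-58987328 for Ptgr1, chr6:5298291-5298590 for Pon2 and chr6:5256184-5256483 for Pon3. Capitals mark matches, on either strand, to the ARE core TGACNNNGC or to the GC box GGGCGG; no match of one overlaps a match of the other.
Txn1: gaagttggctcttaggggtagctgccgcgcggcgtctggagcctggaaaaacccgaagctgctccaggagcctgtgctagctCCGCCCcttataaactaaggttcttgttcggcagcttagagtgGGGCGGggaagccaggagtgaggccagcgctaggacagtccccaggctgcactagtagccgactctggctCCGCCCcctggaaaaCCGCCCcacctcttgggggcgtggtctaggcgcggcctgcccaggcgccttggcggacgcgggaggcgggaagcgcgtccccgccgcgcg
Ptgr1: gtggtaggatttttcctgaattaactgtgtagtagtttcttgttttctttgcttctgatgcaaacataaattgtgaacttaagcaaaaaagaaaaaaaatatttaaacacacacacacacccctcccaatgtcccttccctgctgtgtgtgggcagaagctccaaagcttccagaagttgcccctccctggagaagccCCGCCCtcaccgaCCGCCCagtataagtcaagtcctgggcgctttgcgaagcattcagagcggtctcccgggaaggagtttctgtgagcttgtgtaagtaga
Pon2: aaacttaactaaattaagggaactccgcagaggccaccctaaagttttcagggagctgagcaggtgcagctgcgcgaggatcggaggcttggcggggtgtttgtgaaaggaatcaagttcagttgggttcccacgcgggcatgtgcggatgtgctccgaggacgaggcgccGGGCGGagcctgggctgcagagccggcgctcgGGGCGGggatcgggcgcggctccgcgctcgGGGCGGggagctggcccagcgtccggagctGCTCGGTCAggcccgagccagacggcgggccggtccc
Pon3: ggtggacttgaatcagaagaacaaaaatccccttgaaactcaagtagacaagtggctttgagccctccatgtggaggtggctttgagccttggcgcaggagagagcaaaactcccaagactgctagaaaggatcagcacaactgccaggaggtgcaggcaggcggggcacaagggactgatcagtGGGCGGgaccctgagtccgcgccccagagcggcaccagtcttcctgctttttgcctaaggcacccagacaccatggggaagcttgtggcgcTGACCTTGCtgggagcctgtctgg

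The ARE core matched once in the Pon2 window, starting at base 14 after the start on the opposite strand, and once in the Pon3 window, starting at base 27 after the start on the gene's own strand. It did not match in the Txn1 or Ptgr1 windows, and 12.4% of all 32851 promoters in the table hold it. GC boxes numbered 4 in Txn1, 3 in Pon2, 2 in Ptgr1 and 1 in Pon3, and 35.7% of promoters hold at least 1. An AP-1 site (TGANTCA, in 7.81% of promoters) matched in Pon3, a TATA box (TATAAA, in 13.6%) in Txn1 and a CCAAT box (CCAAT, in 37.4%) in Ptgr1, both strands searched. These last matches began at bases -242 (Pon3), -160 (Txn1) and -125 (Ptgr1) from the transcription start. Variants of the letters were not searched, so a window without a match was not shown to lack such an element. CpG dinucleotides numbered 31 in Pon2 and 26 in Txn1, against 7 each in Ptgr1 and Pon3, where 7 is also the median over all promoters. At least as many were found in 10.6% of promoters for Pon2 and in 16.9% for Txn1. Txn1 and Pon2, the genes called higher, have the more CpG-rich windows. The ARE core matched in Pon2, and also in Pon3, which did not pass the test. A link between promoter content and response was not tested, and 4 genes are too few to show one. Sites outside the windows of 300 bases were not searched. These are matches of letters; binding at them was not measured.

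Txn1 was the most abundant of the 4 and changed most. It held 5607 and 5799 reads in BrQ replicates 1 and 3, against 2975 and 2726 reads in Vehicle replicates 1 and 3. Scaled to CPM, a count relative to library size, with edgeR's trimmed mean of M-values (TMM CPM), its level was 708 and 748 in BrQ and 432 and 418 in Vehicle. Both BrQ libraries lay above both Vehicle libraries, with a gap several times the spread within either group. BrQ averaged 728 ± 28.3 TMM CPM and Vehicle 425 ± 9.84 (SD, n = 2 each). The gene was 1.71-fold higher in BrQ, a log2 fold change of 0.78 ± 0.13 (SE; 95% interval 0.49 to 1.06) with an adjusted p of 0.00147 by edgeR's quasi-likelihood test. The gene spans chr4:57943373-57956411 on the minus strand, has 1051 exonic bases, and shares none of them with another annotated gene. A processed pseudogene, Txn-ps1 on chromosome 1, is 95.8% identical to it over 309 bases and held 0 reads in all 4 libraries, in a part of the genome where symbols are in doubt.

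Pon2 showed a smaller rise. It held 2116 and 1832 reads in BrQ replicates 1 and 3, against 1325 and 1249 reads in Vehicle replicates 1 and 3. The levels were 267 and 236 TMM CPM in BrQ and 193 and 192 in Vehicle, so the groups did not overlap, and the BrQ mice differed from each other by more than the Vehicle mice did. BrQ averaged 252 ± 21.8 TMM CPM and Vehicle 192 ± 0.595 (SD, n = 2 each). The gene was 1.31-fold higher, a log2 fold change of 0.39 ± 0.14 (SE; 95% interval 0.08 to 0.70) with an adjusted p of 0.0436 by edgeR, just inside the threshold of 0.05. Leaving out any 1 of the 4 libraries ended this call, though such a fit takes its spread from the other group and assumes that the lone library varies alike. The edgeR adjusted p was 0.287 with BrQ replicate 1 left out, 0.0977 with BrQ replicate 3 left out, 0.0922 with Vehicle replicate 1 left out and 0.104 with Vehicle replicate 3 left out. The log2 fold change in these fits was 0.31, 0.49, 0.37 and 0.37, in the same order. With the replicate number as a block the adjusted p was 0.0999 and with RLE size factors 0.073, both by edgeR, and DESeq2 gave 0.0755. Pon2 spans chr6:5264147-5298455 on the minus strand and shares 680 of its exonic bases (9.27%) with Gm44424, an unclassified transcript on the opposite strand, so reads on that part are uncertain where strand was not used. Gm44424 itself held 15 and 28 reads in BrQ and 1 read in each Vehicle library. On these low counts it was called higher, with a log2 fold change of 4.06 ± 0.85 (SE, adjusted p = 0.00511, edgeR). Its part in the Pon2 call was not tested.

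Pon3, the gene next to Pon2, was not shown to change. It held 214 and 267 reads in BrQ replicates 1 and 3, against 179 and 288 reads in Vehicle replicates 1 and 3. The levels were 27.0 and 34.5 TMM CPM in BrQ and 26.0 and 44.2 in Vehicle. Both BrQ values lay between the Vehicle values. The log2 fold change was -0.19 ± 0.27 (SE; 95% interval -0.80 to 0.42; adjusted p = 0.592, edgeR), and it was positive under 3 of 14 other settings, so neither a direction nor the absence of a change can be read from it. RefSeq carries Pon3 4596 bases further at its 3′ end than GENCODE M21 does (chr6:5220852-5256286). The feature Gm44250 lies in that extension and held 54 and 73 reads in BrQ against 71 and 78 in Vehicle (adjusted p = 0.240, edgeR). Pon1, the third paraoxonase, had 0 reads in all 4 libraries and could not be tested.

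The members' ratio within a library does not depend on the scaling (0.5 was added to each count). The log2 ratio of Pon3 to Pon2 reads was -3.30 and -2.78 in BrQ replicates 1 and 3, against -2.88 and -2.11 in Vehicle replicates 1 and 3. The groups overlapped, and the difference of -0.54 had a p of 0.67 in a two-sided exact permutation test, where 2 against 2 cannot go below 0.33. With 1 library left out the difference ran from -0.92 to -0.15. A test of this size cannot show whether Pon2 and Pon3 responded differently. The log2 ratio of Txn1 to Pon2 was 1.41 and 1.66 in BrQ against 1.17 and 1.13 in Vehicle, with no overlap. That of Txn1 to Ptgr1 was 4.72 and 5.21 in BrQ against 4.33 and 3.89 in Vehicle, again with no overlap. Txn1 therefore gained reads relative to each of these genes in both BrQ mice, whatever the scaling; these ratios were not tested.

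Ptgr1 was not shown to change either. It held 213 and 156 reads in BrQ replicates 1 and 3, against 147 and 184 reads in Vehicle replicates 1 and 3, or 26.9 and 20.1 TMM CPM in BrQ and 21.4 and 28.2 in Vehicle. The higher BrQ library and the higher Vehicle library were nearly level, and so were the lower ones. BrQ averaged 23.5 ± 4.79 TMM CPM and Vehicle 24.8 ± 4.86 (SD, n = 2 each). The log2 fold change was -0.08 ± 0.25 (SE; 95% interval -0.63 to 0.48; adjusted p = 0.824, edgeR), and it was positive under 6 of 14 other settings. The gene spans chr4:58965439-58987119 on the minus strand and shares no exonic base with another annotated gene.

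**Figure D1:**
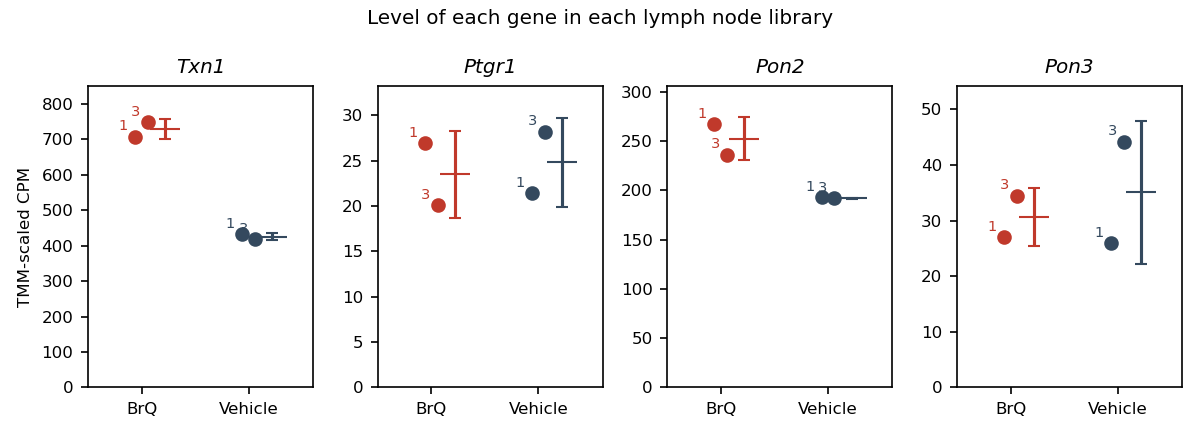
TMM CPM of Txn1, Ptgr1, Pon2 and Pon3 (y axes, each from 0) in the 2 BrQ and 2 Vehicle libraries (x axis). Points are libraries with their replicate number, and the bar beside them is the mean with its SD; Txn1 at 708 and 748 in BrQ against 432 and 418 in Vehicle and Pon2 at 267 and 236 against 193 and 192 do not overlap, while Ptgr1 and Pon3 do.

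Per length, the order of the levels was Txn1, Pon2, then Ptgr1 and Pon3. Txn1 stood at 693 ± 26.9 TMM CPM per exonic kilobase in BrQ and 405 ± 9.36 in Vehicle, and Pon2 at 34.3 ± 2.98 in BrQ and 26.2 ± 0.0811 in Vehicle. Ptgr1 stood at 10.2 ± 2.09 per kilobase in BrQ and 10.8 ± 2.12 in Vehicle, and Pon3 at 9.08 ± 1.55 in BrQ against 10.4 ± 3.80 in Vehicle (SD, n = 2 each). Ptgr1 and Pon3 did not differ beyond their spread, whereas Pon2 lay above both in all 4 libraries, and Txn1 above Pon2. Lengths were the union of a gene's annotated exons, so a gene with long exons that are rarely used is set low by this scale; Pon2 has 7339 exonic bases.

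All 4 members passed the filter on low counts, and 2 of the 4 were called higher and 0 lower. Calls were common in these libraries: 44.6% of the 10223 features tested were called, 23.0% higher in BrQ and 21.6% lower, and inside the 5 stretches 43.8% of 445 were called, 19.1% higher and 24.7% lower. Groups did not overlap for 2 of the 4 members, nor for 76.1% of all tested features, with 39.9% above Vehicle and 36.2% below. Inside the stretches 76.0% did not overlap, with 31.5% above and 44.5% below. Against that background, 2 calls among 4 genes are not a result about the group. These shares rest on all 4 libraries: without BrQ replicate 3 the calls were 2649 over all features, against 4556, and 97 inside the stretches, against 195. The balance of the calls inside turned with the scaling. TMM over all features gave 85 higher and 110 lower, scaling by gene reads without TMM gave 142 higher and 30 lower, scaling by every read row gave 119 higher and 65 lower, and a fit of the stretches by themselves gave 115 higher and 97 lower.

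By size, 26.6% of all tested features had a larger log2 fold change than Txn1 and 38.5% a larger one than Pon2, and for Ptgr1 and Pon3 these shares were 54.5% and 58.6%. Inside the stretches, whose median was lower, 56 of the 445 features inside (12.6%) had a larger log2 fold change than Txn1, and 114 (25.6%) a larger one than Pon2. For Ptgr1 and Pon3 the shares inside were 44.7% and 50.8%.

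**Figure D2:**
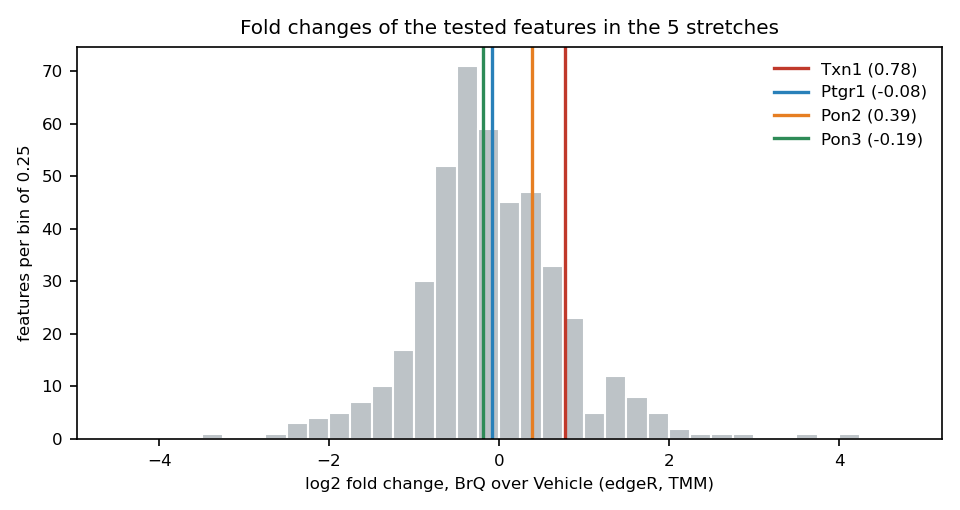
Histogram of the log2 fold change, BrQ over Vehicle (x axis), of the 445 features tested in the 5 stretches, in bins of 0.25 (y axis, features per bin). Vertical lines mark Txn1 at 0.78 and Pon2 at 0.39, on the right side, and Ptgr1 at -0.08 and Pon3 at -0.19, near the middle.

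A change of scaling moves all log2 fold changes by nearly the same amount. It can thus alter their absolute size but hardly the order of the members or their distance from the median. With library size alone the median over all tested features moved by 0.37 on the log2 scale, and calls split into 3444 higher and 1006 lower, against 2351 higher and 2205 lower with TMM. Txn1 then stood at 1.14 and Pon2 at 0.76. Set against that median, Txn1 was 0.73 above it with either scaling and Pon2 0.34 above it with either. Ptgr1 and Pon3 had positive fold changes with library size alone, at 0.31 and 0.20, but lay 0.11 and 0.22 below that median.

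Of the gene reads, 15.8% and 12.1% were mitochondrial in BrQ replicates 1 and 3, against 20.6% and 30.3% in Vehicle replicates 1 and 3, which lowers every other gene's CPM in Vehicle when library size alone is used. Without mitochondrial features and with library size alone, a setting chosen after seeing the data, the log2 fold change was 0.94 for Txn1 (adjusted p = 0.000205, edgeR) and 0.56 for Pon2 (adjusted p = 0.0109, edgeR). The median over all tested features was then 0.21, against 0.42 with library size alone and 0.05 with TMM.

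**Figure D3:**
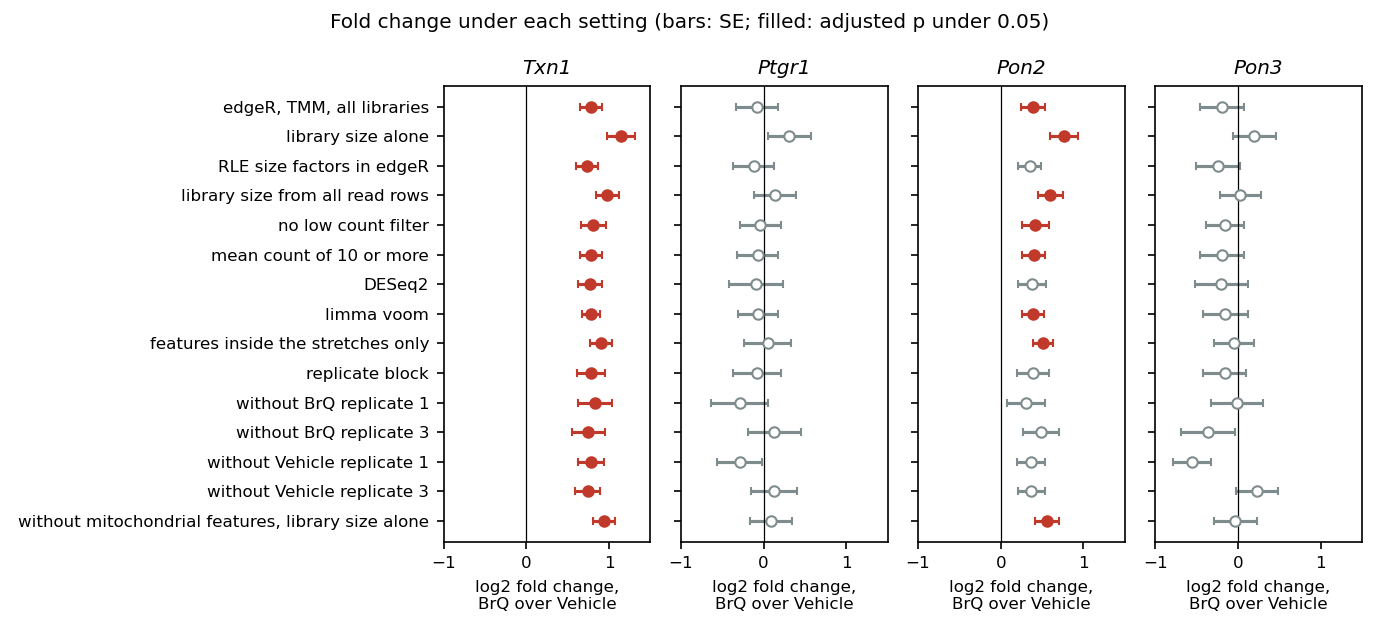
Log2 fold change, BrQ over Vehicle (x axis), of each member under 15 settings (rows), with SE bars; filled points have an adjusted p under 0.05. Txn1 lies between 0.73 and 1.14 and is filled in each row, Pon2 lies between 0.31 and 0.76 and is filled in 8 rows, and Ptgr1 and Pon3 lie on both sides of 0 and are never filled.

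Genes beside the members show which names carried reads at these places, but the stretches had been tuned on the counts. Which of these genes are described was also chosen after their values were seen. They therefore cannot test the match of names to reads. The 5 named protein-coding genes on each side of Txn1, of Ptgr1 and of the paraoxonase cluster came to 27 gene IDs, of which 14 averaged under 10 reads and 8 averaged 100 reads or more. Genes known mainly from other tissues were at or near 0: Txndc8, a thioredoxin of the testis 27.6 kb from Txn1, had 0 reads in all 4 libraries, as did Dync1i1, a dynein chain best known from neurons, and the muscle receptor kinase gene Musk had 1 read in BrQ replicate 1 and 0 elsewhere. Genes used in many cell types held many reads: Ecpas, a proteasome adaptor 52.7 kb from Ptgr1, had 2814 and 2861 reads in BrQ against 2574 and 3022 in Vehicle, and Sem1, a proteasome subunit gene, had 2267 and 2197 in BrQ and 2750 and 2615 in Vehicle. Gng10, a G protein subunit gene, held only 14 and 18 reads in BrQ against 8 and 9 in Vehicle.

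Of 13 neighbours tested, 1 was called higher and 2 lower, with a median log2 fold change of -0.21. Over the 445 features inside the stretches, 19.1% were called higher and 24.7% lower, with a median of -0.18. Lpar1, a lysophosphatidic acid receptor gene between Txn1 and Ptgr1, rose with a log2 fold change of 0.99 ± 0.29 (SE; adjusted p = 0.0207, edgeR), at 12.6 ± 1.07 TMM CPM in BrQ against 6.33 ± 0.494 in Vehicle (SD, n = 2 each). It lost the call without BrQ replicate 1 (adjusted p = 0.086, edgeR), without Vehicle replicate 3 (adjusted p = 0.0643, edgeR) and with DESeq2 (adjusted p = 0.0855). Sem1 fell, with a log2 fold change of -0.49 ± 0.13 (SE; adjusted p = 0.0126, edgeR) that was -0.12 with library size alone (adjusted p = 0.584, edgeR), and the call was also lost without BrQ replicate 1 or 3 (0.0745 and 0.104, edgeR adjusted p). Col1a2, a fibroblast collagen gene, was the other that fell. Lpar1 was the only one of the 13 called in the direction of Txn1, and 13 genes are too few to set against those shares.

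**Figure D4:**
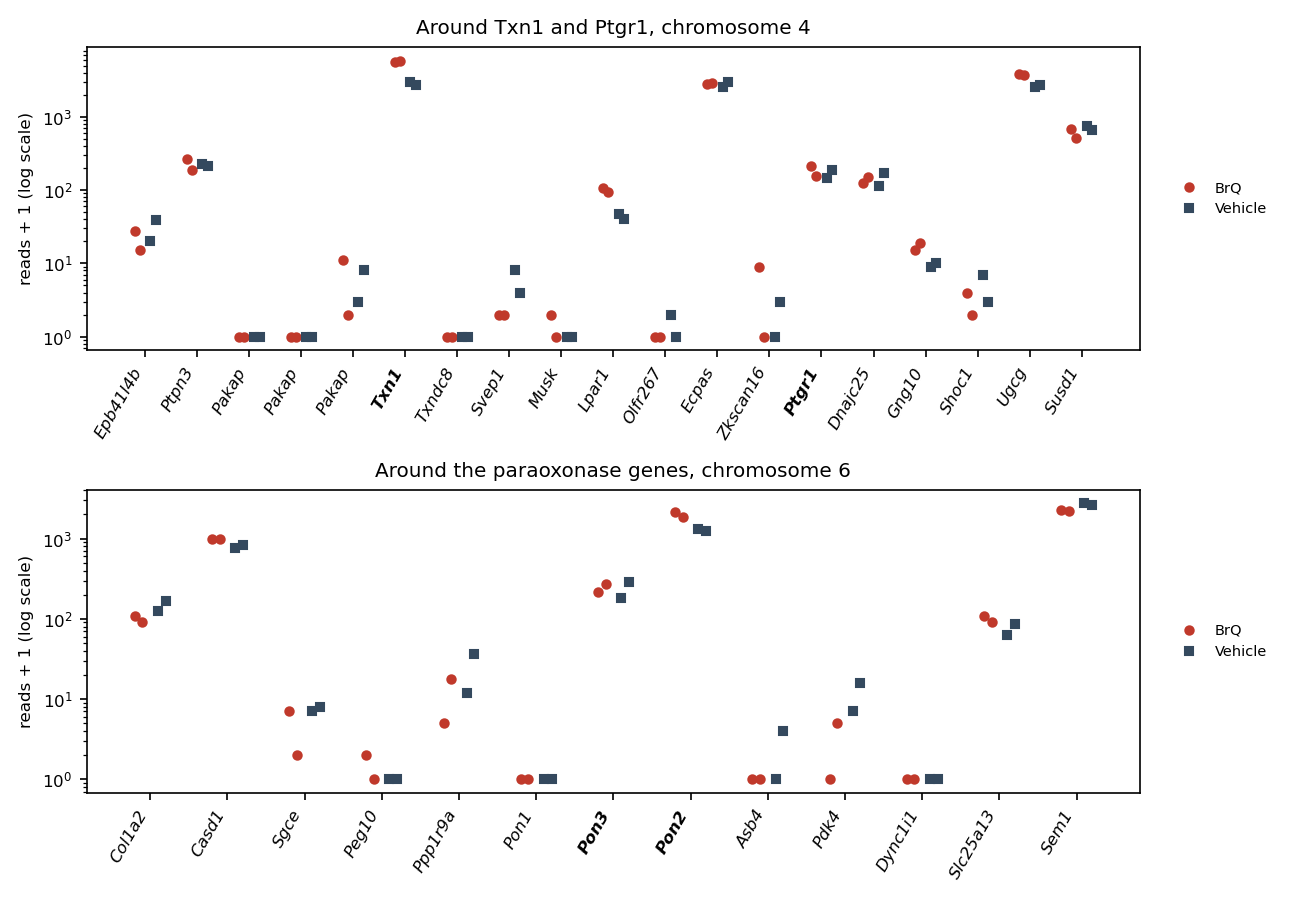
Reads plus 1 (y axis, log scale) of the members (bold) and of their 5 nearest named protein-coding genes per side, in chromosome order (x axis), with BrQ libraries as circles and Vehicle libraries as squares. Txn1 at 2726 to 5799 reads stands beside Txndc8 at 0, and Pon2 at 1249 to 2116 reads near Pon1 at 0; the 3 Pakap entries are separate gene IDs under 1 symbol.

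Other genes of the same defence system could rarely be read. The lists of thioredoxin, quinone and carbonyl reduction, paraoxonase, glutathione and NRF2 genes named 91 symbols, of which 90 were in the tables and 8 lay inside the stretches. These 8 include the members themselves and Pon1. Of the 8, 7 were tested, 3 were called higher, Txn1 and Pon2 among them, and 0 lower. Over all 445 features inside, 19.1% were called higher and 24.7% lower. The median log2 fold change was 0.16 for the tested list genes, members included, against -0.18 over the 445. Aldh1b1 was on the quinone and carbonyl reduction list, though its product, a mitochondrial aldehyde dehydrogenase, oxidises aldehydes. This gene, on chromosome 4, was the list gene called beside Txn1 and Pon2. It held 654 and 1034 reads in BrQ against 265 and 209 in Vehicle, or 82.6 and 133 TMM CPM in BrQ against 38.5 and 32.1 in Vehicle, with no overlap. It was 3.06-fold higher, a log2 fold change of 1.61 ± 0.24 (SE; adjusted p = 0.000958, edgeR), and kept the call under 14 of 14 other settings.

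The remaining 2 list genes inside did not pass. Nadk2, the mitochondrial NAD kinase, stood at 42.8 and 40.5 TMM CPM in BrQ and 29.9 and 45.0 in Vehicle (adjusted p = 0.597, edgeR). Aco1, the cytosolic aconitase that doubles as iron regulatory protein 1, stood at 91.2 and 71.9 in BrQ and 77.3 and 88.2 in Vehicle (adjusted p = 0.932, edgeR). Outside the stretches, 25 of 82 listed names had 0 reads in all 4 libraries and 32 were tested. Of those tested, 6 were called higher and 6 lower, against 23.0% higher and 21.6% lower over all 10223 features tested. Their median log2 fold change was 0.22, against 0.05 over all features. Names outside the stretches were not shown to sit on their genes' reads. No level is therefore given for NRF2's classical targets such as Nqo1 and Hmox1 or for thioredoxin reductase.

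Lymphocyte markers inside the stretches moved as well. The B cell genes Pax5 and Cd72 summed to 2074.6 and 2125.7 TMM CPM in BrQ replicates 1 and 3, against 3254.2 and 3390.7 in Vehicle replicates 1 and 3. The T cell genes Il7r, Sit1 and Tox summed to 679 and 755 TMM CPM in BrQ, against 1005 and 1069.8 in Vehicle. All 5 were tested, and Tox was called higher and Cd72, Il7r and Sit1 lower. For comparison, 19.1% of the 445 features tested inside the stretches were called higher and 24.7% lower. The 5 markers are too few to set against those shares. Cd72, a B cell surface receptor, had a log2 fold change of -1.01 ± 0.12 (SE; adjusted p = 0.000411, edgeR), whereas Pax5, the B lineage transcription factor, did not pass (-0.22; adjusted p = 0.160, edgeR). Il7r, the interleukin 7 receptor, fell, with a log2 fold change of -0.61 ± 0.14 (adjusted p = 0.00724, edgeR), as did Sit1, a T cell adaptor, at -0.78 ± 0.16 (adjusted p = 0.0041, edgeR). Tox, a transcription factor of T cells, rose, with a log2 fold change of 0.72 ± 0.17 (SE; adjusted p = 0.0074, edgeR). With library size alone Il7r (-0.23; adjusted p = 0.284, edgeR) and Sit1 (-0.41; adjusted p = 0.0945, edgeR) lost their calls and Pax5 stood at 0.15, and without BrQ replicate 1 the calls of Il7r (0.0625, edgeR adjusted p) and Tox (0.0530, edgeR adjusted p) were lost.

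Counts under the stromal marker names were low, and of 4 listed Col1a2 and Cav1 were tested. Ccl19, Ccl21a and Col1a2 summed to 17.1 and 12.5 TMM CPM in BrQ and 18.6 and 25.5 in Vehicle. Ccl21a had 0 reads in all 4 libraries. For Ccl19 and Ccl21a the match of name to reads is in doubt. Both lie inside the stretches, so a place inside does not by itself secure that match, for the members as well. Col1a2 fell, with a log2 fold change of -0.78 ± 0.27 (SE; adjusted p = 0.0378, edgeR), a call lost under 8 of 14 other settings, among them without BrQ replicate 3 (adjusted p = 0.185, edgeR) and without Vehicle replicate 3 (adjusted p = 0.191, edgeR). Cav1, of endothelium and stroma, had 2 and 10 reads in BrQ against 8 and 13 in Vehicle. The part of cell makeup in the rise of Txn1 and Pon2 was not tested.

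Genes with the most similar profiles were sought among 304 protein-coding features inside the stretches with a mean of at least 10 TMM CPM, by the Euclidean distance between log2 CPM profiles centred on their mean over the 4 libraries. Nearest to Txn1 were Chmp5 (distance 0.121), Rock1 (0.146) and Golph3 (0.151). Chmp5, a membrane-scission protein gene, stood at 249 and 254 TMM CPM in BrQ and 156 and 159 in Vehicle. Nearest to Pon2 were Rrm2b (0.0533), a ribonucleotide reductase subunit gene, Ywhaz (0.0663), which encodes a 14-3-3 protein, and Dcaf10 (0.108). Rrm2b stood at 68.3 and 57.7 TMM CPM in BrQ and 48.7 and 48.8 in Vehicle. Nearest to Ptgr1 were Shb (0.0535), Wwp1 (0.115) and Myo10 (0.149), and nearest to Pon3 were Dnajc25 (0.121), Strip2 (0.302) and Smim30 (0.319). Profiles over 4 libraries from the same mice are short, so these distances describe the libraries alone.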

How the data were processed

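RNA was measured in 1 lymph node library per mouse. The deposited values are raw counts of reads per gene. HTSeq 0.11.2, HISAT2 2.1.0 and Trim Galore 0.6.2 are the tools, and mm10 the build, listed in the submitters' processing notes, which as held here name neither an annotation release nor a strand setting. The 5 closing rows of each table, which name no gene, held 87.0% to 89.0% of read rows and were left out of library sizes and tests.

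Counts were filtered with filterByExpr, scaled by TMM and tested in edgeR 4.0.16 by the quasi-likelihood test (R 4.3.3), with Benjamini-Hochberg adjustment over all 10223 features and a threshold of 0.05; an SE is the log2 fold change divided by the square root of F. The procedure was run on simulated counts, where fewer features changed than were called here, and by more than Txn1 or Pon2 did. That run does not test the calls reported. DESeq2 1.42.0, limma voom 3.58.1, other scalings, filters and left-out libraries were alternatives. Positions and exon lengths came from GENCODE M21, promoters from RefSeq GRCm38.p6.

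The members, gene lists and the 5 stretches were chosen with earlier results of these data known, and the stretches were tuned on the counts. Named genes were the members, listed genes inside the stretches, the nearest protein-coding genes and the 3 most similar profiles per member; which of the neighbours and similar genes are described was chosen after their values were seen. Groups and replicate numbers came from sample titles. Libraries within a group differed beyond sampling noise (chi-square per degree of freedom 12.4 in BrQ and 26.6 in Vehicle), so each counted as 1 replicate.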

Additional observations from a re-analysis of the deposited data

Results flagged for a closer look

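Reads that fell in no annotated feature lie outside the gene counts compared here, and their share was higher in BrQ. It averaged 88.7% of read rows in BrQ libraries and 87.3% in Vehicle libraries, and each BrQ library exceeded each Vehicle library. Its part in the results for Txn1 and Pon2 was not tested.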

How the results depend on the processing

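Txn1 kept its call under 14 of 14 alternatives, with log2 fold changes of 0.73 to 1.14 (0.74 to 0.83 with 1 library left out) and adjusted p of 1.12e-09 to 0.00635 by edgeR, DESeq2 or limma. Pon2 stayed positive under all 14 but missed the threshold under 7: at 0.35 with RLE size factors (adjusted p = 0.073, edgeR), 0.38 with DESeq2 (adjusted p = 0.0755), 0.39 with the replicate block and 0.31 to 0.49 with each library left out in turn. Ptgr1 changed sign with library size alone (0.31), library size from all read rows (0.14), the stretches only (0.05) and mitochondrial features removed together with library size alone (0.09), and ran from -0.29 to 0.13 with 1 library left out. Pon3 changed sign with library size alone (0.20) and all read rows (0.03), and ran from -0.55 to 0.23 with 1 library left out. Aco1 changed sign with library size alone (0.36), all read rows (0.19), no low count filter (0.01), the stretches only (0.10) and mitochondrial features removed together with library size alone (0.15), and ran from -0.19 to 0.15 with 1 library left out. Nadk2 ran from -0.13 to 0.46 with 1 library left out, and Pax5 stood at 0.15 with library size alone. The cause of these changes was not tested.

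Calls over all features numbered 4556, and 2649 (without BrQ replicate 3) to 4572 with 1 library left out. Inside the stretches there were 195, and 97 (without BrQ replicate 3) to 200; over the defence lists 15, and 7 (without BrQ replicate 3; 8 without Vehicle replicate 3) to 16. Of the 15 defence list calls, 3 were inside the stretches, where 7 list genes were tested. Outside, 32 were tested, with 6 called higher and 6 lower, under names not shown to sit on their genes' reads. Over all features tested, 44.6% were called. Library size alone split the calls over all features 3444 higher to 1006 lower. All read rows gave 2996 to 1522, and library size alone with mitochondrial features also removed gave 2896 to 1660. The Pon3 to Pon2 ratio difference stayed negative, at -0.92 to -0.15 with 1 library left out. Across tested features, the log2 CPM difference between replicates 1 and 3 in BrQ correlated at -0.119 with that in Vehicle. The numbers were therefore not taken as pairs. The replicate block made 4119 calls over all features and 164 inside the stretches. It ended the call of Pon2 alone among the 4 genes. A crossed block, chosen after seeing the data, made 5183 calls. The alternative without mitochondrial features, which changes the scaling as well, and the refits of listed, marker and neighbouring genes were also added after seeing the data. With 2 mice a group, the 95% intervals of Ptgr1 and Pon3 allow changes of up to 0.63 and 0.80 downward on the log2 scale.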
